A study of Mus musculus with 6 samples.

Results

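The p53 pathway and its target genes were followed through the ribosome-bound mRNA of mouse hepatocytes that were repopulating an injured liver, with and without repression of Neurl1b. The set holds 34 genes chosen by name, all present among the 35970 gene symbols of the deposited table and represented there by 180 transcripts, which were summed per symbol. Of the 34, 33 had a mean of at least 1 TPM, the unit of the deposited values (the length-corrected share of a transcript in its library, scaled to a total of 1000000), and were tested. The translesion polymerase gene Polk, at a mean of 0.873 TPM, fell under that filter.

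All 6 mice lacked Fah (Fah-/-), carried dCas9, a Cas9 without cutting activity, and were kept on 7.5 µg/mL nitisinone, a drug that protects livers without Fah, until injection. A hydrodynamic tail vein injection delivered 10 µg of plasmid and the virus AAV8.TBG.PI.Cre.rBG, which expresses Cre from TBG, a hepatocyte promoter, after which nitisinone was withheld. The control group of 3 mice received pkt2-fah-GFPL10a-CRISPRi-Nontargeting, and the other 3 mice received pkt2-fah-GFPL10a-CRISPRi-Neurl1b. As their names say, both plasmids carry Fah, GFP fused to the ribosomal protein L10a, and a guide for CRISPR interference. Livers were taken 4 weeks later, and mRNA was recovered from 400 mg of liver by pulling down the tagged ribosomes. Both groups therefore shared the Fah deletion, the injury, the Cre virus and the tag, and none of the 6 libraries came from an uninjured liver. The labels used here give neither age nor sex.

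The protein p53, encoded by Trp53 in the mouse, is a transcription factor that is held low by the ubiquitin ligase Mdm2 and stabilised after DNA damage and other stress. It then induces genes of cell cycle arrest, apoptosis, DNA repair and metabolism, among them Mdm2 itself, which closes a feedback loop. Its best known target, Cdkn1a, encodes p21, an inhibitor of cyclin-dependent kinases. In the Fah-deficient liver, toxic tyrosine metabolites build up once nitisinone is withdrawn, and hepatocytes with Fah expand in their place.

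Binding sites of p53 consist of a pair of half-sites, each with a core of 4 bases. The core is CATG in the strongest sites. In others it is CTTG, whose reverse complement is CAAG, and in a few sites it is CTAG. RefSeq promoter windows (build GRCm38.p6, 250 bases before to 50 after a gene start) were at hand for 26 of the 34 genes. A pair of such cores 6 bases apart, a spacing that reads the same on both strands, occurred in 7 of these 26 genes and in 8.19% of all 27025 symbols with a window. Pairs with CATG in both places, a subset of these and also the same on both strands, occurred in Cdkn1a alone among the 26 and in 0.833% of all symbols. The single half-site consensus, which also reads the same on both strands and can overlap with the core pairs, occurred in 11 of the 26 genes and in 9.55% of all symbols. A full site of 2 adjoining half-sites of that consensus occurred in 0 of the 26 genes and in 0.0111% of all symbols (3 of 27025). None of the stretches below therefore holds a full consensus site. A gene counted as a match if any of its windows matched. The 26 genes had 38 windows and the 27025 symbols 32851, more per gene for the 26, and the shares were not corrected for this. The windows are short, and a match of letters describes the sequence and not binding. The 7 stretches are shown with the 2 cores in capitals.
Cdkn1a (chr17:29090923-29090952, + strand): ttcaggaaCATGtcttgaCATGttcagccc
Trp53 (chr11:69580279-69580308, + strand): cggaaggaCTTGcccttaCTTGttatggcg
Tigar (chr6:127109741-127109770, - strand): gcggcggtCTAGctctggCAAGactccagg
Aen (chr7:78895932-78895961, + strand): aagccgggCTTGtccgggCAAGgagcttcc
Plk2 (chr13:110395033-110395062, + strand): tgctcgctCTTGctcgcaCAAGcgaagcag
Bbc3 (chr7:16309481-16309510, + strand): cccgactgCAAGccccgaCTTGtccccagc
Rps27l (chr9:66946291-66946320, + strand): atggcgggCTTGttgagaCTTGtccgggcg

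The Cdkn1a pair begins 48 bases before an upstream start, that of ENSMUST00000119901 in the GENCODE vM21 annotation. The start of ENSMUST00000023829, which held 79.8% of the Cdkn1a TPM, lies 2790 bases further downstream.

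The labels were checked first. Neurl1b had 1.22, 0.897 and 0.688 TPM in non-targeting mice 1, 2 and 3 and 0.295, 0.351 and 0.307 TPM in Neurl1b CRISPRi mice 1, 2 and 3, a mean 2.95-fold lower in the latter, with no overlap. It was under the filter, and its log2 fold change in the fit without a filter was -0.55 (SE 0.115, limma adjusted p = 0.430). Fah, supplied by both plasmids, had 67.4, 71.4 and 52.9 TPM in the controls and 52.5, 79.6 and 55.2 TPM in the CRISPRi mice, with overlapping groups. The values keep no read depth, and between 17813 and 18680 genes had a TPM above 0 per library. The 6 hepatocyte markers summed to 25297 to 56845 TPM in the controls and 21973 to 29605 TPM in the CRISPRi mice. The labelled cell type was thus present in all libraries, whereas 7 lymphocyte markers summed to at most 2.32 TPM. The highest hepatocyte sum was that of non-targeting mouse 2, and the other controls had 31709 and 25297 TPM. Whether so large a share lowered the TPM of other genes in mouse 2 was not tested. The library of non-targeting mouse 1 stood apart from its group. It was the highest of the 3 controls for 67.9% of the 10598 genes tested, and its median-of-ratios scale factor of 1.12 was near those of the CRISPRi mice (1.05 to 1.09) and above those of the other controls (0.838 and 0.848). For this reason the main counts of called genes and the values of several members are given with and without that mouse, and the plot of fold changes shows both for all 34. Neurl1b was at -0.44 on the log2 scale without it. In bulk libraries, a change in the share of cells of a type and a change in RNA per cell cannot be told apart.

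No gene of the p53 set passed the test between the groups, although most had higher mean levels in the CRISPRi mice. Mdm2 and Cdkn1a, the best known targets, had log2 fold changes of 0.68 and 1.10, and 1 control mouse had levels of both like those of the CRISPRi mice. With all 6 libraries, 0 of 33 tested members had a limma adjusted p below 0.05, against 0.0189% of all genes called higher (2 of 10598) and 0% called lower, and the lowest adjusted p of a member was 0.351. At an unadjusted p below 0.05 in limma there were 6 members, all with more TPM in the CRISPRi mice, namely Sesn2, Ccng1, Phlda3, Mdm2, Aen and Zmat3. The background was 10.1% of all genes in that direction and 3.19% in the other. The log2 fold change of TPM + 1 was above 0 for 28 of 33 members, where 74.0% of all genes were, and below 0 for 5, where 26.0% were. The median of the members was 0.44 and that of all genes 0.18. The groups did not overlap for 3 members, Aen, Ddb2 and Sesn2, against 12.5% of all genes in the higher and 4.57% in the lower direction. Ddb2, with a control mean of 0.846 TPM, met the filter through the CRISPRi mice. Median-of-ratios scaling took the median of all genes to -0.0013 and that of the members to 0.25, with 0 members called where 0.0189% of all genes were. The signs of Fas, Perp, Ercc5 and Sesn1 turned negative with that scaling, and those of Mdm4, Apaf1, Fas, Ercc5 and Sesn1 with quantile normalization. With 3 mice per group an exact permutation test could not go below p = 0.1, so the model across all genes was used. Its p-values weigh the group difference against the spread between these mice, which limma moderates by a trend over all genes.

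**Figure D1:**
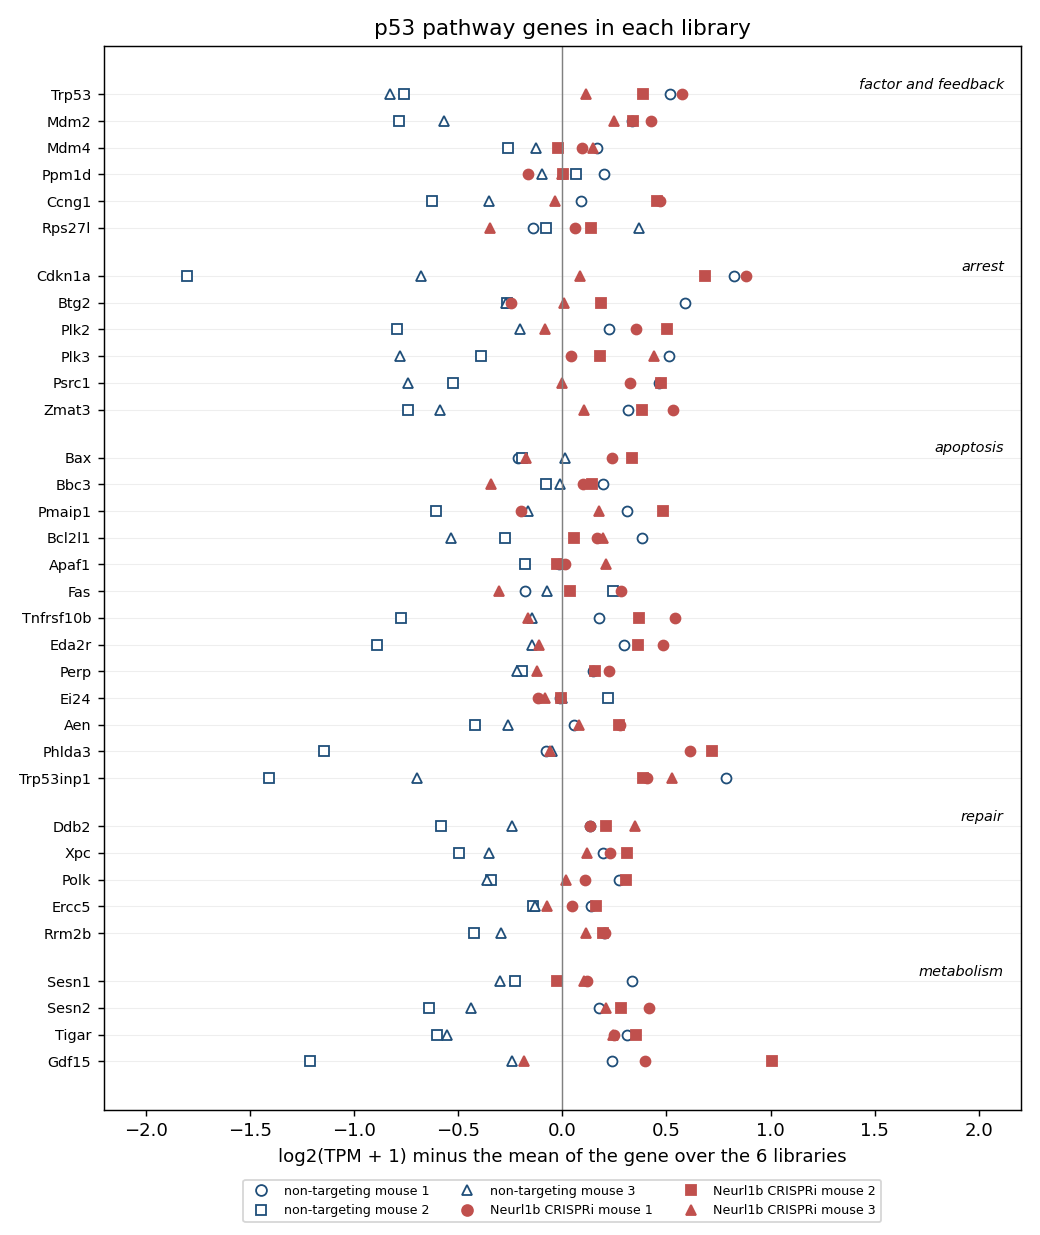
Each row is a gene of the p53 set, grouped by function, and each point is a library, plotted as log2(TPM + 1) minus the gene's mean over the 6 libraries. Open blue symbols are non-targeting and filled red symbols Neurl1b CRISPRi mice. For most genes the open circle (non-targeting mouse 1) lies among the red symbols, while the open square and triangle (mice 2 and 3) lie to the left.

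For most members the controls differed among themselves by more than the groups did. For 32 of the 33 members the range of the 3 controls on the log2 scale was larger than the difference between the group means, as it was for 9332 of 10598 genes. The median range was 0.82 in the controls and 0.40 in the CRISPRi mice for the members, and 0.57 and 0.26 for all genes. Non-targeting mouse 1 was the highest control for 27 of 33 members, where the background was 67.9%, and its level lay within the range of the CRISPRi mice for 20 of 33 members, against 43.7% of all genes. Its log2 level exceeded the mean of the other controls by a median of 0.62 over the members and of 0.35 over all genes.

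Non-targeting mouse 1 was singled out from these same values. Leaving out a control that is high for most genes lowers their control means and so favours calls in the higher direction. The p-values without that mouse do not allow for this choice and are given as a description. Once it was left out, 15 of 33 members passed in limma, all higher in the CRISPRi mice. The background was 23.1% of 10558 genes called higher and 2.24% called lower. These 15 were Trp53, Mdm2, Ccng1, Cdkn1a, Plk3, Psrc1, Zmat3, Bcl2l1, Aen, Trp53inp1, Ddb2, Xpc, Rrm2b, Sesn2 and Tigar. Among them, Ddb2 and Rrm2b had control means under the filter (0.846 and 0.841 TPM) and met it through the CRISPRi mice. The median log2 fold change was then 0.64 for the members and 0.29 for all genes. The remaining groups of 2 and 3 mice did not overlap for 23 members in the higher and 1 in the lower direction, where 52.3% and 8.08% of all genes did not. Adding median-of-ratios scaling left Trp53 and Mdm2 as the members that passed, against 1.74% of genes called higher and 2.74% called lower, and took the median of the members to 0.37. Leaving out any one of the other 5 mice in place of it gave 0 called members. The median of the members was lowest without non-targeting mouse 2, at 0.23, where that of all genes was 0.13. Of the 7 genes with a core pair in their window, 4 were among the 15 (Trp53, Cdkn1a, Aen and Tigar) and 3 were not (Plk2, Bbc3 and Rps27l). As 15 of all 33 tested members passed, this split says nothing about the pair, and members without a pair were not compared.

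**Figure D2:**
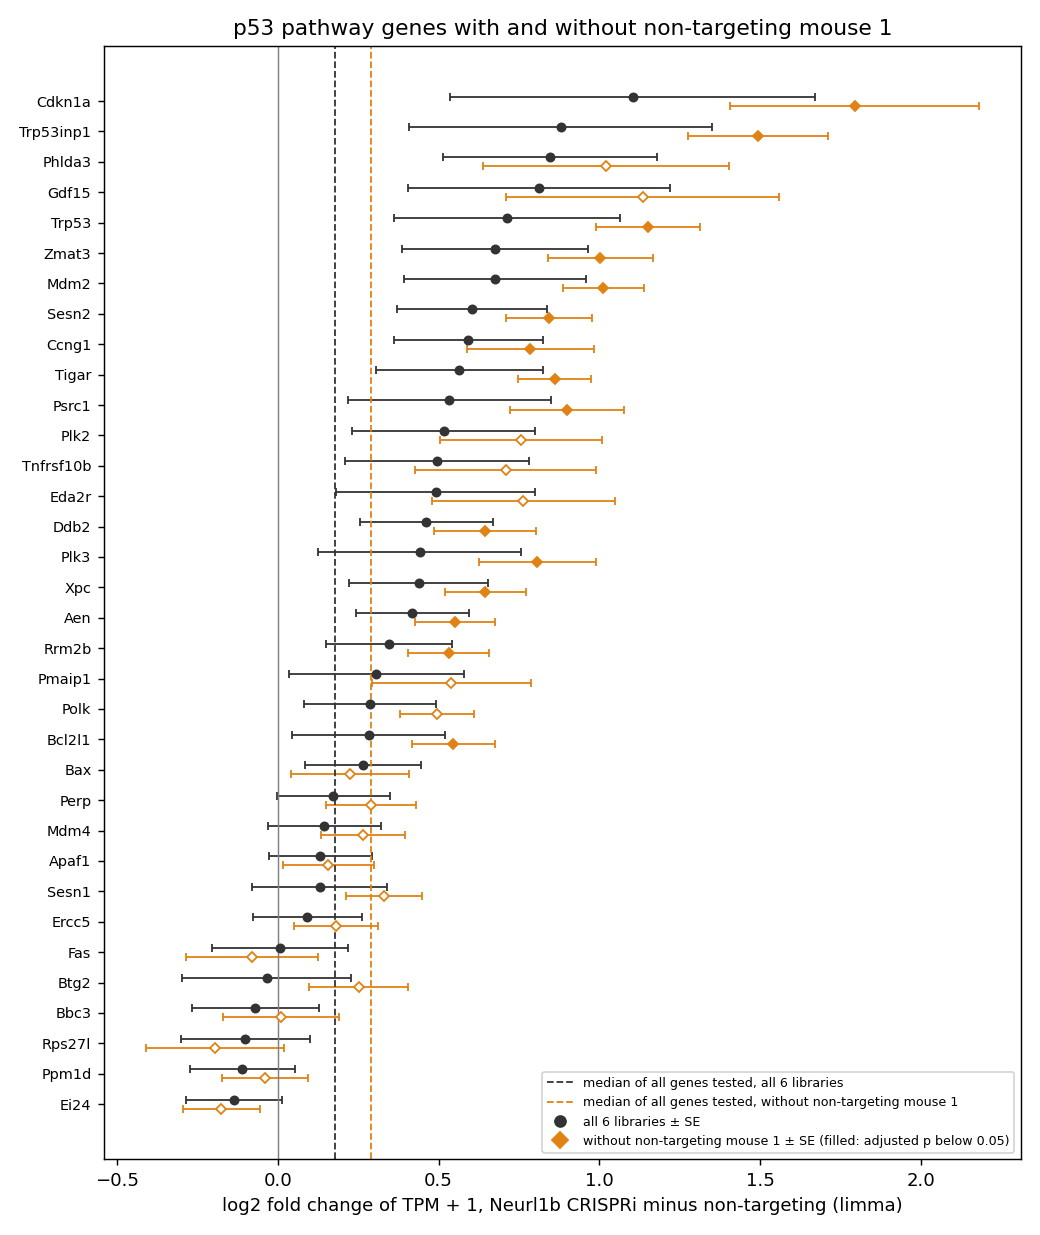
Log2 fold change of TPM + 1 (Neurl1b CRISPRi minus non-targeting) with its SE for the 34 genes, from all 6 libraries (black circles) and without non-targeting mouse 1 (orange diamonds, filled where the adjusted p was below 0.05). Dashed lines mark the medians of all genes tested, 0.18 and 0.29. No black circle passed the threshold, and 15 diamonds are filled.

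Among the factor itself and its feedback regulators, 0 of 6 passed with all mice and 3 (Trp53, Mdm2 and Ccng1) passed as higher without non-targeting mouse 1, against 23.1% of all genes. Trp53 mRNA was at 16.8, 6.31 and 5.99 TPM in the non-targeting mice and at 17.4, 15.2 and 12.4 TPM in the CRISPRi mice. Mouse 1 of the controls was thus as high as the CRISPRi mice, and the groups overlapped. The means were 9.69 ± 6.13 and 15.01 ± 2.53 TPM (SD, n = 3 each), with a log2 fold change of 0.71 (SE 0.35, limma adjusted p = 0.399). It came to 1.15 (SE 0.16, adjusted p = 0.0174) in limma without non-targeting mouse 1, and to 0.84 (SE 0.15, adjusted p = 0.0431) with both that omission and median-of-ratios scaling.

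Mdm2, the ubiquitin ligase that degrades p53, had nearly the same pattern. Its TPM was 20.0, 8.66 and 10.2 in the controls and 21.3, 20.0 and 18.7 in the CRISPRi mice, with means of 12.9 ± 6.13 and 20.0 ± 1.28 (SD, n = 3 each). The log2 difference was 0.68 (SE 0.28, limma adjusted p = 0.367) with all mice, 1.01 (SE 0.13, adjusted p = 0.0173) without non-targeting mouse 1 and 0.69 (SE 0.12, adjusted p = 0.0432) when scaling was added. Ccng1, which encodes cyclin G1, a p53 target that helps to activate Mdm2, had 50.4, 30.3 and 36.9 TPM in the controls and 65.8, 65.3 and 46.1 TPM in the CRISPRi mice. Non-targeting mouse 1 lay above the lowest CRISPRi mouse and the other controls lay below it, and the fitted log2 difference was 0.59 (SE 0.23, limma adjusted p = 0.351).

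The other feedback genes varied less. Mdm4, a relative of Mdm2 that blocks the activity of p53, had 1.52 and 1.77 TPM on average, with a 95% interval of the log2 fold change of -0.26 to 0.55. Ppm1d, the phosphatase Wip1 that switches damage signalling off, had 1.54 and 1.35 TPM, with an interval of -0.48 to 0.26. Rps27l, a ribosomal protein gene whose product interacts with Mdm2, was the most abundant gene of the set per length at 1889, 1968 and 2689 TPM in the controls and 2167, 2292 and 1632 TPM in the CRISPRi mice. Its highest level was in non-targeting mouse 3 and its lowest in CRISPRi mouse 3, an order unlike that of Mdm2 or Trp53.

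Of the 6 arrest genes, 0 passed with all mice and 4 passed as higher without non-targeting mouse 1, where 23.1% of all genes did. Cdkn1a had the largest log2 fold change of the set. Its TPM was 147, 22.9 and 51.1 in the controls, a 6.41-fold range, and 153, 133 and 87.6 in the CRISPRi mice. All CRISPRi mice lay above non-targeting mice 2 and 3, and only CRISPRi mouse 1 lay above non-targeting mouse 1. The means were 73.6 ± 65.0 and 125 ± 33.5 TPM (SD, n = 3 each) and the log2 fold change 1.10 (SE 0.57, limma adjusted p = 0.406), with a 95% interval of -0.19 to 2.40. Leaving out that control gave 1.79 (SE 0.39, adjusted p = 0.0284), and scaling in addition gave 1.45 (SE 0.38, adjusted p = 0.0766), which did not pass.

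Zmat3, which encodes an RNA-binding protein that acts downstream of p53, had 6.78, 2.74 and 3.17 TPM in the controls and 8.03, 7.14 and 5.72 TPM in the CRISPRi mice. Psrc1, a gene of a microtubule-binding protein, had 8.56, 3.81 and 3.14 TPM against 7.67, 8.63 and 5.91 TPM. In both genes the values of non-targeting mouse 1 were inside the range of the CRISPRi mice and those of the other controls below it. The polo-like kinase genes Plk2 and Plk3 had log2 fold changes of 0.52 (SE 0.28, limma adjusted p = 0.420) and 0.44 (SE 0.31, limma adjusted p = 0.495). Plk3 passed without non-targeting mouse 1, at 0.81 (SE 0.18, adjusted p = 0.0309), and Plk2 did not, at 0.76 (SE 0.25, adjusted p = 0.0716). With scaling added, 0 of the 6 arrest genes passed.

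Btg2, an anti-proliferative p53 target that is also induced by growth signals, stood out from the other arrest genes. Its TPM was 21.6, 11.5 and 11.5 in the controls and 11.7, 16.1 and 14.1 in the CRISPRi mice. Non-targeting mouse 1 was the highest of all 6 libraries, and CRISPRi mouse 1 was level with the low controls. The log2 fold change of Btg2 was -0.034 (SE 0.26, limma adjusted p = 0.954), with a 95% interval of -0.63 to 0.57, and turned to 0.25 without non-targeting mouse 1.

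**Figure D3:**
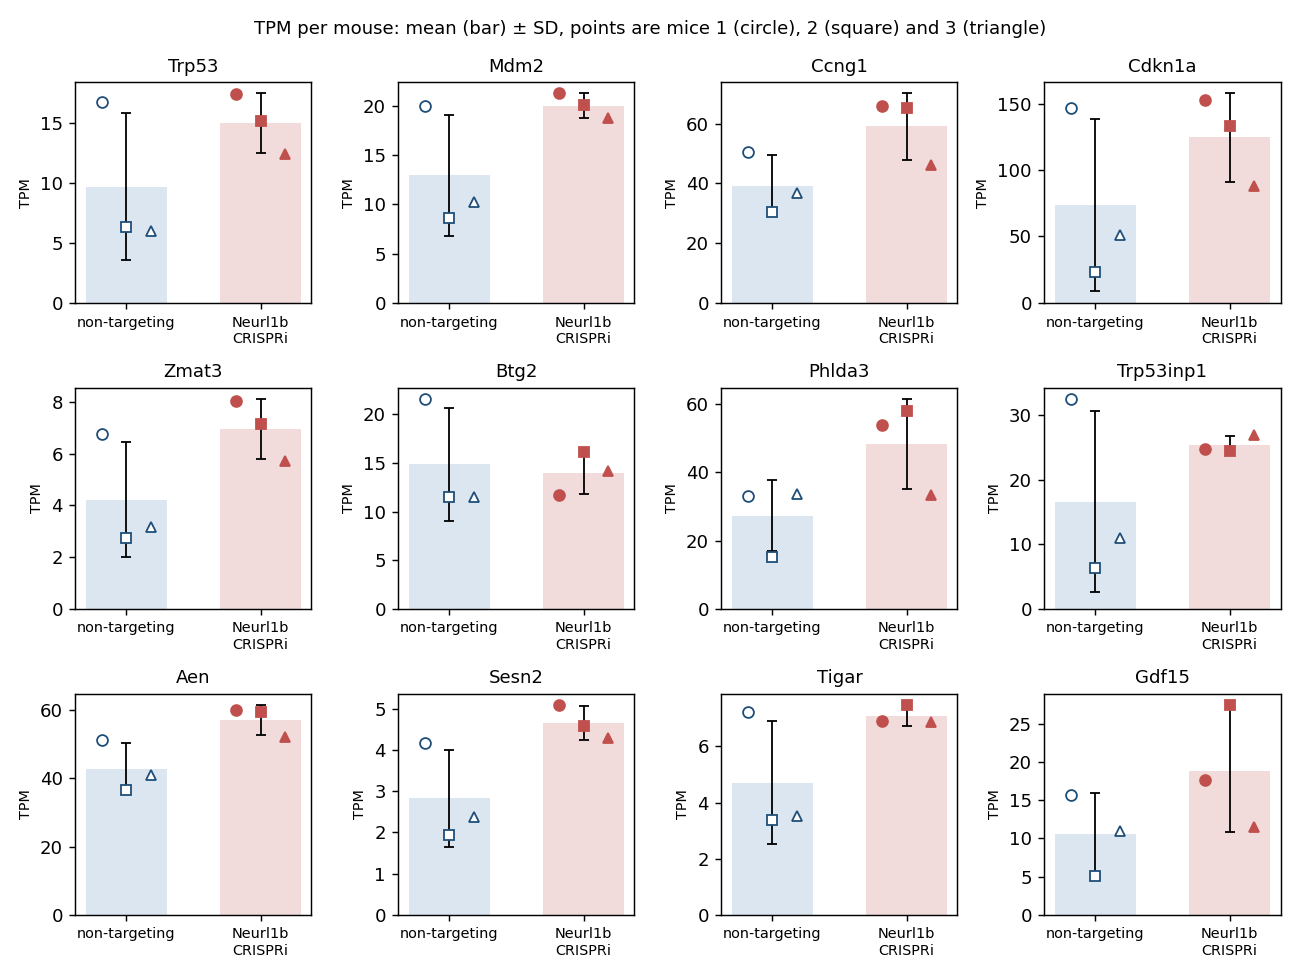
TPM of 12 genes of the p53 set per mouse, with the group mean (bar) and SD (line), for 3 non-targeting and 3 Neurl1b CRISPRi mice. In Trp53, Mdm2, Cdkn1a, Zmat3 and Tigar the control circle (mouse 1) is at the height of the red symbols, and the control square and triangle are lower. In Aen and Sesn2 all red symbols are above all open ones.

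Among the apoptosis genes, levels ranged from near 1 TPM for Apaf1 to over 100 TPM for Bax. Of 13 members, 0 passed with all mice, and 3 (Bcl2l1, Aen and Trp53inp1) passed as higher without non-targeting mouse 1, which is the share of all genes called higher there (23.1%). Aen, which encodes an exonuclease that promotes apoptosis, had 51.2, 36.6 and 40.9 TPM in the controls and 59.9, 59.6 and 52.2 TPM in the CRISPRi mice. The groups did not overlap, by a margin of less than 1 TPM between non-targeting mouse 1 and CRISPRi mouse 3. This gave a log2 fold change of 0.42 (SE 0.18, limma adjusted p = 0.368), and 0.55 (SE 0.12, adjusted p = 0.0309) without that control. Trp53inp1, a p53-induced nuclear protein gene, had 32.6, 6.34 and 11.0 TPM in the controls and 24.8, 24.5 and 27.0 TPM in the CRISPRi mice. The CRISPRi mice were close together, and the controls spanned a 5.14-fold range with mouse 1 at its top. The fitted log2 difference was 0.88 (SE 0.47, limma adjusted p = 0.411), and 1.49 (SE 0.22, adjusted p = 0.0176) without that mouse.

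Phlda3, which encodes an inhibitor of Akt signalling, had 33.0, 15.2 and 33.6 TPM in the controls and 53.8, 58.0 and 33.4 TPM in the CRISPRi mice. Here non-targeting mouse 1 did not stand above mouse 3, and CRISPRi mouse 3 was level with both. The means were 27.3 ± 10.5 and 48.4 ± 13.1 TPM (SD, n = 3 each) and the log2 fold change 0.85 (SE 0.33, limma adjusted p = 0.352). With that control left out it was 1.02 (SE 0.38, adjusted p = 0.0948), so this gene did not pass in either case.

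Among the death receptors, Tnfrsf10b, the receptor of TRAIL, had 2.59, 0.858 and 1.87 TPM in the controls and 3.63, 3.10 and 1.83 TPM in the CRISPRi mice. Eda2r, a receptor of ectodysplasin, had 3.12, 0.805 and 2.03 TPM and 3.68, 3.31 and 2.10 TPM. Both were lowest in non-targeting mouse 2, and in both CRISPRi mouse 3 was at the level of non-targeting mouse 3. Fas, the receptor of Fas ligand, had 9.498, 13.0 and 10.3 TPM and 13.4, 11.2 and 8.61 TPM, with overlapping groups and a log2 fold change of 0.0072 (95% interval -0.48 to 0.49) that changed sign with median-of-ratios scaling.

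The Bcl-2 family genes of the mitochondrial route had values on both sides of 0, and none passed with all mice. Bax, the pore-forming effector, had 100, 102 and 118 TPM in the controls and 138, 147 and 103 TPM in the CRISPRi mice, and CRISPRi mouse 3 lay within the control range. Bbc3, which encodes the BH3-only protein PUMA, had 8.19, 6.61 and 6.98 and 7.60, 7.88 and 5.33 TPM, and Pmaip1, which encodes NOXA, had 2.04, 0.608 and 1.19 and 1.13, 2.43 and 1.77 TPM. Their log2 fold changes were 0.27 for Bax, -0.069 for Bbc3 and 0.31 for Pmaip1, with 95% intervals of -0.15 to 0.68, -0.52 to 0.38 and -0.31 to 0.93. The sign for Bax turned negative (-0.13) when non-targeting mouse 1 was left out and scaling added. Bcl2l1, whose main product Bcl-xL opposes apoptosis, had 55.1, 34.6 and 28.6 TPM in the controls and 47.3, 43.7 and 48.3 TPM in the CRISPRi mice. It was highest in non-targeting mouse 1, and its log2 fold change of 0.28 (SE 0.24, limma adjusted p = 0.552) became 0.55 (SE 0.13, adjusted p = 0.0341) without that mouse. Apaf1, the apoptosome scaffold, had 1.28 and 1.505 TPM on average.

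Perp, which encodes a desmosomal and pro-apoptotic membrane protein, and Ei24, which encodes an endoplasmic reticulum protein, were abundant and varied little between libraries. Perp had 83.6, 65.7 and 64.7 TPM in the controls and 88.0, 84.0 and 69.2 TPM in the CRISPRi mice. Ei24 had 76.2, 89.4 and 76.7 TPM and 70.8, 76.5 and 72.3 TPM, with a log2 fold change of -0.14 (SE 0.15, limma adjusted p = 0.636). Its 95% interval of -0.48 to 0.20 overlapped that of Mdm2 (0.030 to 1.32), and a difference between the 2 genes was not tested.

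The repair genes were present at low levels. Of 4 tested, 0 passed with all mice and 3 (Ddb2, Xpc and Rrm2b) passed as higher without non-targeting mouse 1, against 23.1% of all genes. Ddb2 and Rrm2b had control means under the filter (0.846 and 0.841 TPM) and were tested only through the CRISPRi mice, which limits that count. Xpc, which recognises distorted DNA in nucleotide excision repair, had 5.67, 3.13 and 3.56 TPM in the controls and 5.82, 6.22 and 5.34 TPM in the CRISPRi mice, with a log2 fold change of 0.44 (SE 0.22, limma adjusted p = 0.399). Ddb2, the damage sensor for ultraviolet lesions, had 1.33, 0.416 and 0.796 TPM and 1.33, 1.46 and 1.70 TPM. The groups of Ddb2 did not overlap, although non-targeting mouse 1 and CRISPRi mouse 1 were equal to 3 digits. Rrm2b, the p53-inducible ribonucleotide reductase subunit, had 1.34, 0.521 and 0.661 TPM and 1.35, 1.33 and 1.21 TPM. The untested Polk, a translesion polymerase gene, had 1.23, 0.454 and 0.431 TPM and 0.986, 1.28 and 0.864 TPM. The first control mouse was inside the range of the CRISPRi mice for Xpc, Rrm2b and Polk. Ercc5, the excision repair endonuclease XPG, had 1.88 and 2.06 TPM on average and a log2 fold change of 0.091 that changed sign with median-of-ratios scaling. At such levels the number of reads behind a value is unknown, and Ddb2 shares 393 identical bases with Acp2, an overlap that a library kit without strand information cannot resolve.

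Of the 4 genes of metabolism and secreted stress signals, 0 passed with all mice and 2 (Sesn2 and Tigar) passed as higher without non-targeting mouse 1, against 23.1% of all genes. Sesn2, which encodes a sestrin that restrains mTORC1 and answers to the integrated stress response as well as to p53, had 4.17, 1.93 and 2.38 TPM in the controls and 5.10, 4.57 and 4.29 TPM in the CRISPRi mice. The groups did not overlap, by a narrow margin to non-targeting mouse 1, and the log2 fold change came to 0.60 (SE 0.23, limma adjusted p = 0.351). Its paralog Sesn1 had 4.51, 2.73 and 2.55 TPM and 3.74, 3.30 and 3.70 TPM, with non-targeting mouse 1 the highest of all and a log2 fold change of 0.13 (SE 0.21, limma adjusted p = 0.748). Tigar, a fructose bisphosphatase that slows glycolysis, had 7.23, 3.37 and 3.52 TPM and 6.90, 7.48 and 6.86 TPM. The CRISPRi mice of Tigar spanned less than 1 TPM, and non-targeting mouse 1 lay among them. Gdf15, a secreted stress cytokine, had 15.7, 5.11 and 11.0 TPM in the controls and 17.6, 27.5 and 11.5 TPM in the CRISPRi mice. CRISPRi mouse 2 was the highest and CRISPRi mouse 3 lay within the control range, and the log2 fold change came to 0.81 (SE 0.41, limma adjusted p = 0.404).

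At the level of transcripts, 20 of the 34 genes had at least 2 transcripts that each held 10% or more of the gene's TPM. No member transcript passed in limma over 19849 transcripts, where 0 passed in all, with 2 of 53 member transcripts at an unadjusted p below 0.05, both higher, where 6.69% of all transcripts were higher and 3.07% lower. Without non-targeting mouse 1, 7 of 52 member transcripts passed as higher and 0 as lower, against 10.4% and 1.85% of 19660 transcripts. Mdm2 came from 2 main transcripts whose starts lie 736 bases apart in the GENCODE vM21 annotation. As background, Mdm2 has a constitutive promoter upstream of its first exon and a p53-responsive one in its first intron. The upstream-started ENSMUST00000020408.16 had 10.1, 3.38 and 3.76 TPM in the controls and 9.98, 6.94 and 8.20 TPM in the CRISPRi mice. The downstream-started ENSMUST00000155285.8, annotated there as a target of nonsense-mediated decay, had 8.56, 4.61 and 6.42 TPM and 8.82, 11.5 and 9.23 TPM. Its share of Mdm2 was 42.9%, 53.3% and 62.9% in the controls and 41.4%, 57.4% and 49.3% in the CRISPRi mice, and these ranges overlapped. The log2 fold changes were 0.60 (SE 0.38, limma adjusted p = 0.526) for the upstream and 0.55 (SE 0.24, limma adjusted p = 0.500) for the downstream start.

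Both main transcripts of Cdkn1a followed the gene. ENSMUST00000023829.8, with 79.8% of the Cdkn1a TPM, had 113, 19.5 and 44.4 TPM in the controls and 121, 105 and 70.7 TPM in the CRISPRi mice. ENSMUST00000233296.2 starts 12 bases further downstream and had 32.1, 3.15 and 6.68 TPM and 29.4, 26.9 and 16.6 TPM. Its share was lower in non-targeting mice 2 and 3, at 13.8% and 13.1%, than in the other 4 libraries, at 18.9% to 21.9%. For Trp53inp1, the coding transcript ENSMUST00000029865.4 had 25.2, 1.63 and 5.16 TPM in the controls and 17.4, 11.3 and 20.8 TPM in the CRISPRi mice. Its partner ENSMUST00000132010.8, annotated in vM21 as a processed transcript, had 7.36, 4.71 and 5.81 TPM and 7.35, 13.2 and 6.19 TPM. The wide range of Trp53inp1 thus lay mostly in the coding transcript.

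Trp53 was divided unevenly between libraries. ENSMUST00000005371.12 had 11.9, 6.14 and 5.33 TPM in the controls and 4.88, 13.4 and 10.1 TPM in the CRISPRi mice. ENSMUST00000108658.10 had 3.66, 0.0210 and 0.000145 TPM and 11.3, 1.05 and 1.38 TPM, and held most of the gene in CRISPRi mouse 1 only. Both start at the same base in vM21. A division of reads between overlapping transcripts is an estimate, so the sum over Trp53 is the firmer value.

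**Figure D4:**
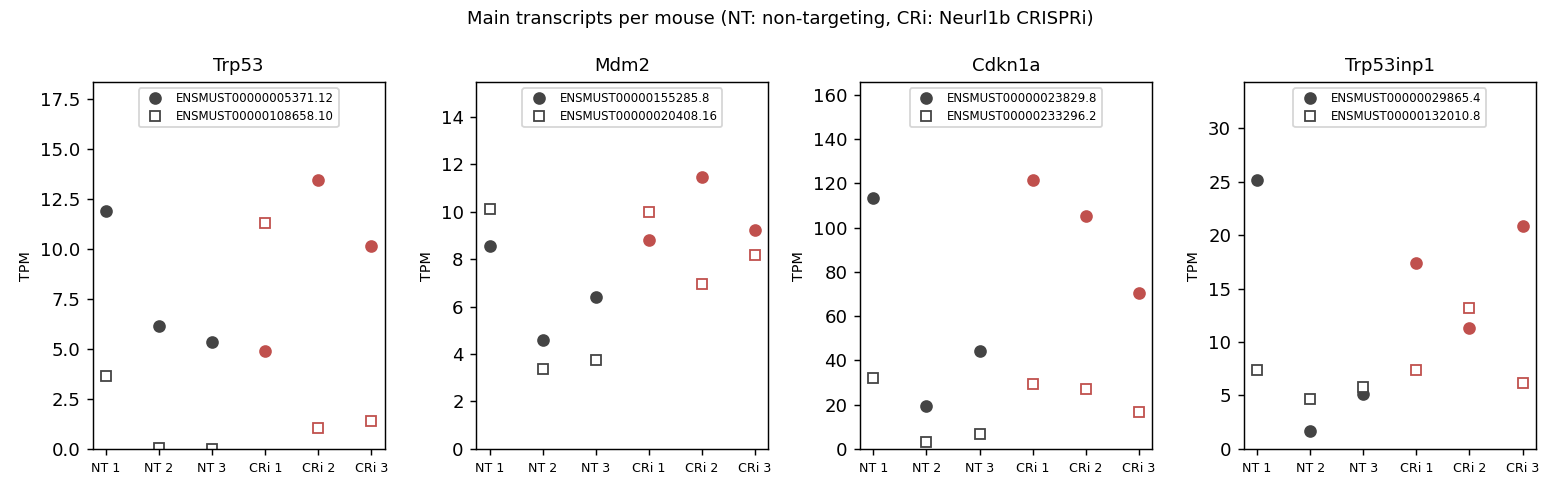
TPM of the 2 main transcripts of Trp53, Mdm2, Cdkn1a and Trp53inp1 in each library (NT, non-targeting; CRi, Neurl1b CRISPRi). Both Cdkn1a transcripts are high in NT 1 and in all CRi mice, and the second Trp53 transcript is high mainly in CRi 1.

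Other genes of the p53 network were taken from 3 lists. Of 24 upstream kinases and regulators, 17 were tested, 0 passed with all mice and 0 had an unadjusted p below 0.05, and their median log2 fold change was 0.096. The smallest p belonged to Usp28, a deubiquitinase that stabilises p53, at 0.40 (SE 0.21, limma adjusted p = 0.407). Hipk2 and Chek2, kinases that phosphorylate p53, had 0.33 (SE 0.17, limma adjusted p = 0.410) and 0.32 (SE 0.23, limma adjusted p = 0.495). Usp7, the deubiquitinase of Mdm2 and p53, had 0.23 (SE 0.22, limma adjusted p = 0.590). Once non-targeting mouse 1 was left out, 2 of the 17 passed as higher, Usp28 and Usp7, a smaller share than the 23.1% of all genes. The median became -0.069 with median-of-ratios scaling.

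Of 41 other p53 targets, 29 were tested and 0 passed with all mice, while 5 had an unadjusted p below 0.05 as higher and 1 as lower, against 10.1% and 3.19% of all genes. Their median log2 fold change was 0.21, close to the 0.18 of all genes. Ddit4, which encodes the mTORC1 inhibitor REDD1 and also answers to hypoxia and the integrated stress response, had 15.6, 6.24 and 7.43 TPM in the controls and 24.0, 21.003 and 25.9 TPM in the CRISPRi mice, with no overlap and a log2 fold change of 1.29 (SE 0.30, limma adjusted p = 0.310). Sfn, which encodes 14-3-3 sigma, a p53-induced brake on entry into mitosis, had 4.81, 0.420 and 1.41 TPM and 4.80, 4.48 and 5.58 TPM. Non-targeting mouse 1 was among the CRISPRi mice for Sfn, and its log2 fold change came to 1.13 (SE 0.44, limma adjusted p = 0.351). Tgfa, a growth factor, had 0.71 (SE 0.25, limma adjusted p = 0.344) and Abhd4, a lipase gene, 0.83 (SE 0.31, limma adjusted p = 0.345). Omission of the same control let 7 of the 29 pass, all higher, a share near the 23.1% of all genes called higher in that fit. After added scaling 2 passed in limma as higher, against 1.74% of all genes called higher and 2.74% called lower. They were Ddit4 at 1.33 (SE 0.15, limma adjusted p = 0.0294) and Sfn at 1.47 (SE 0.26, limma adjusted p = 0.0432). The median of the 29 genes in that fit was -0.014, with 14 above 0 and 15 below.

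Genes that p53 is known to repress through p21 and the DREAM complex mostly had the opposite sign. Mean levels were lower in the CRISPRi mice in 17 of 19 tested genes, where 26.0% of all genes had a log2 fold change below 0. The other 2, E2f1 and Mcm5, had log2 fold changes of 0.35 and 0.23. Of 23 on the list, 19 were tested, 0 passed with all mice, and 10 had an unadjusted p below 0.05, all lower, where 3.19% of all genes were. Their median log2 fold change was -0.74, and -0.90 with median-of-ratios scaling. Birc5, which encodes survivin, had 34.3, 37.9 and 37.2 TPM in the controls and 8.91, 14.6 and 18.4 TPM in the CRISPRi mice, with no overlap and a log2 fold change of -1.37 (SE 0.25, limma adjusted p = 0.250). Kif23, a cytokinesis motor, had 4.65, 2.42 and 2.65 TPM and 0.279, 0.843 and 1.53 TPM, and Ccna2, cyclin A2, had 13.8, 7.95 and 8.74 TPM and 2.36, 3.94 and 5.75 TPM. Cenpa, the centromeric histone, had a log2 fold change of -0.97 (SE 0.24, limma adjusted p = 0.310). In these genes non-targeting mouse 1 was on the side of the other controls, unlike in Cdkn1a, Mdm2 and Trp53. Across the 19 tested genes it was the highest of the 6 libraries in all except Birc5, Cenpa and E2f1, with Cdk1 at 48.8 and Cdc20 at 38.9 TPM. In that library, high levels of these genes thus stood beside a Cdkn1a level like that of the CRISPRi mice (147 TPM). The median without that mouse was -0.49. In that fit 2 of 19 passed as lower, Birc5 and, named after its values were seen, Foxm1, where 2.24% of all genes did. Foxm1 and Kif23 met the filter through the controls, where they had means of 1.89 and 3.24 TPM. Their means in the CRISPRi mice were 0.768 and 0.885 TPM, and both are among the 10 genes counted above.

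Markers of other cell types were counted beside these results. Summed TPM of 9 stellate cell and fibroblast markers were 13.3 to 27.9 in the controls and 33.7 to 46.5 in the CRISPRi mice, with 9 of 9 markers higher on average in the latter. For 9 Kupffer cell and macrophage markers the sums were 73.6 to 141.8 and 110.9 to 161.7, also with 9 of 9 higher, and for 8 endothelial markers 18.02 to 26.3 and 18.1 to 28.4, with 7 of 8 higher. For 6 cholangiocyte markers they were 13.3 to 25.7 and 15.9 to 23.8, with 3 of 6 higher. Of the lymphocyte markers 3 of 7 and of the hepatocyte markers 2 of 6 were higher on average in the CRISPRi mice. Among all genes tested, 74.0% had a log2 fold change above 0. No marker was at 0 in all libraries. In non-targeting mouse 1 the Kupffer cell sum was the lowest of the 6 libraries (73.6 TPM) and the cholangiocyte sum the highest (25.7 TPM). Its stellate cell sum (19.6 TPM) lay between those of the other controls. Whether RNA of these cells had a part in the levels of the p53 set was not tested.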

How the data were processed

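Ribosome-bound mRNA was pulled down from livers of 6 mice (3 per group) and sequenced. Per the submitters' processing notes, kallisto and the mouse build mm39 were used, and the authors deposited TPM per transcript (117486 rows). The kallisto version and transcript set were not stated in the labels or headers. TPM keep no depth, so depth per library is unknown, no counting intervals were possible and precision rests on the number of mice. TPM were summed per symbol (168 transcripts without one, at most 143 TPM per library, were left out). Genes with a mean of at least 1 TPM were fitted on log2(TPM + 1), which understates changes of low genes, with limma 3.58.1 (R 4.3.3; trended empirical Bayes, two-sided, Benjamini-Hochberg adjustment over all 10598 genes, threshold 0.05), after a check on simulated data. Fold values named as log2 are on that scale. Near-identical copies were sought with blastn 2.17.0.

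The members, gene lists and markers were chosen with earlier results of these data known. All members were described; other network genes were named by smallest p, up to 4 per list. The labels state no pairing of mice by replicate number, and the main fit used none. Alternatives were other pseudocounts, filters, scalings, priors, a replicate block and leaving out each mouse.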

Additional observations from a re-analysis of the deposited data

How the results depend on the processing

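Of 497 recomputed log2 fold changes of single members, 456 kept their direction and side of the threshold, 17 newly passed and 24, from 10 genes, turned sign. Members called higher (0 with all mice) numbered 0 to 15 when 1 mouse was left out, the 15 without non-targeting mouse 1, and 2 with that omission plus median-of-ratios scaling. Genes called higher (2) numbered 0 at a pseudocount of 5, 0 without a filter, 1 at a mean of at least 5 TPM, 0 with quantile normalization and 184 with the omission plus scaling. When 1 mouse was left out they ranged from 0 (without non-targeting mouse 3) to 2436 (without non-targeting mouse 1). Omitting non-targeting mouse 2 gave 3, and omitting CRISPRi mouse 1 or 2 gave 4. Genes called lower (0) numbered 1 at an adjusted p below 0.1, 289 with the omission plus scaling, and 0 to 237 when 1 mouse was left out. The cause was not tested.

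Signs turned with median-of-ratios scaling for Fas (-0.19), Perp (-0.039), Ercc5 (-0.048) and Sesn1 (-0.028), and with quantile normalization for Mdm4 (-0.036), Apaf1 (-0.047), Fas (-0.18), Ercc5 (-0.095) and Sesn1 (-0.056). With the omission plus scaling they turned for Bax (-0.13), Apaf1 (-0.045), Fas (-0.40), Perp (-0.058) and Ercc5 (-0.049). Leaving out 1 mouse gave -0.20 to 0.060 for Rps27l, -0.18 to 0.25 for Btg2, -0.16 to 0.086 for Bbc3 and -0.13 to 0.16 for Fas.

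Deviations of same-numbered mice correlated at 0.061, -0.096 and -0.28, so the numbers pair no mice. A replicate block called 2 genes as higher, 0 as lower and 0 members, with 8 members at an unadjusted p below 0.05 in limma. At a limma adjusted p below 0.1 the block called 10 genes as higher and 27 as lower, against 2 and 1 in the main fit, and 0 members. Depth is unknown, which limits genes near 1 TPM such as Ddb2, Rrm2b, Apaf1 and Polk.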
